A study of Caenorhabditis elegans with 16 samples.

Results

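The 10 genes described here make, load, recycle, break down or receive acetylcholine in Caenorhabditis elegans: cha-1, unc-17, cho-1, ace-1, ace-2, unc-29, unc-38, unc-63, lev-1 and acr-16. They were picked by gene name, with earlier results of these data known. Each was found once among the 46904 genes of the deposited tables. RNA of whole N2 worms with a wild-type genotype was sequenced in 16 libraries. All worms were fed HT115 E. coli, on plates of nematode growth medium. In 9 control libraries the bacteria carried an empty vector, and in 7 they expressed double-stranded RNA of atp-2, which encodes the catalytic beta subunit of mitochondrial ATP synthase. At 0 hr and at 20 hr there were 3 control and 2 atp-2 RNAi libraries each. At 24 hr and 36 hr there was 1 library of each kind, and 1 control at 48 hr stood against 1 atp-2 RNAi library at 54 hr. The series concerns neuronal genes in stress-induced aversive learning and memory. The labels do not give the age of the worms or the event from which hours were counted.

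Acetylcholine is the main excitatory transmitter at the worm's neuromuscular junctions and is also used by many neurons within the nervous system. Motor neurons make it from choline and acetyl-CoA, pack it into vesicles and release it onto body wall muscle, where acetylcholinesterases cut it and a choline transporter returns choline to the nerve ending. Body wall muscle carries 2 classes of nicotinic receptor, a mixed pentamer opened by the anthelmintic levamisole and a homomeric receptor of ACR-16 that levamisole does not open.

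Levels are given in TPM, a length-scaled share of each library's RNA that sums to the same total in every library. In whole worms, fewer cells of a type and less RNA per cell cannot be told apart. The target transcript was at 1814 to 2097 TPM in the 0 hr controls against 110 to 136 in atp-2 RNAi, and at 1389 to 1910 against 172 to 197 at 20 hr. It was lower in atp-2 RNAi in each unreplicated pair as well, with 2225 against 1043 TPM at 24 hr, 2578 against 736 at 36 hr and 2607 against 431 at 48 and 54 hr. Other tissues moved with the groups. Summed over 20 germline and oocyte markers, controls held 7640 to 10352 TPM at 0 hr and 13373 to 15690 at 20 hr, whereas atp-2 RNAi libraries held 114.9 to 117 and 164 to 289. Summed over 14 pan-neuronal markers, the ranges were 446 to 467 against 942 to 952 TPM at 0 hr, and 513 to 561 against 756 to 788 at 20 hr. Summed over 20 body wall muscle markers, they were 6696 to 11796 against 11699 to 15588 TPM at 0 hr, and 1462 to 1955 against 10675 to 11819 at 20 hr. Summed over 12 epidermis markers, they were 175 to 196 against 4341 to 7726 TPM at 0 hr, and 172 to 183 against 1544 to 4777 at 20 hr. Summed over 11 intestine markers, they were 3654 to 7201 against 9523 to 10136 TPM at 0 hr, and 1719 to 2938 against 9606 to 10759 at 20 hr. Sums follow the most abundant genes of a list. Gene by gene, the 14 pan-neuronal markers had a median log2(TPM + 1) change of 1.40 at 0 hr and 1.98 at 20 hr. All markers of these 5 lists were above 0 at both times. Their part in the results on the acetylcholine genes was not tested.

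In atp-2 RNAi worms 9 of the 10 acetylcholine genes were higher than in controls at 0 hr and the same 9 at 20 hr, and none was lower. The exception at both times was unc-63, a subunit of the levamisole receptor. Summed over the 10 genes, controls held 34.8 to 42.9 TPM and atp-2 RNAi libraries 107 to 111 at 0 hr, and 12.3 to 15.97 against 83.5 to 94.1 at 20 hr. Calls are from limma on log2(TPM + 1) with Benjamini-Hochberg adjustment over all genes tested, at 0.05. A large share of all genes was called in the same way: 43.7% of 14094 genes were higher and 39.6% lower at 0 hr, and 47.7% of 12916 were higher and 40.7% lower at 20 hr. How many of all genes had groups that did not overlap was not counted, so separations of groups given below are descriptions. The median change of the 10 genes was 1.16 on the log2 scale at 0 hr and 1.85 at 20 hr, beside 0.13 and 0.31 over all genes tested. All 10 were tested at both times, but at 20 hr 7 of them had a control mean under 1 TPM and passed the filter through their level in atp-2 RNAi. These were cha-1, unc-17, cho-1, unc-29, unc-38, lev-1 and acr-16, and their 20 hr changes and p-values are descriptions. With no filter the same 9 were called. In the authors' deposited table, q-values put 9 of the 10 past the same threshold: they were under 0.05 at each of these times, and none was in the unreplicated pairs. The share of all genes past it by those q-values was not counted, so this count is a description.

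**Figure D1:**
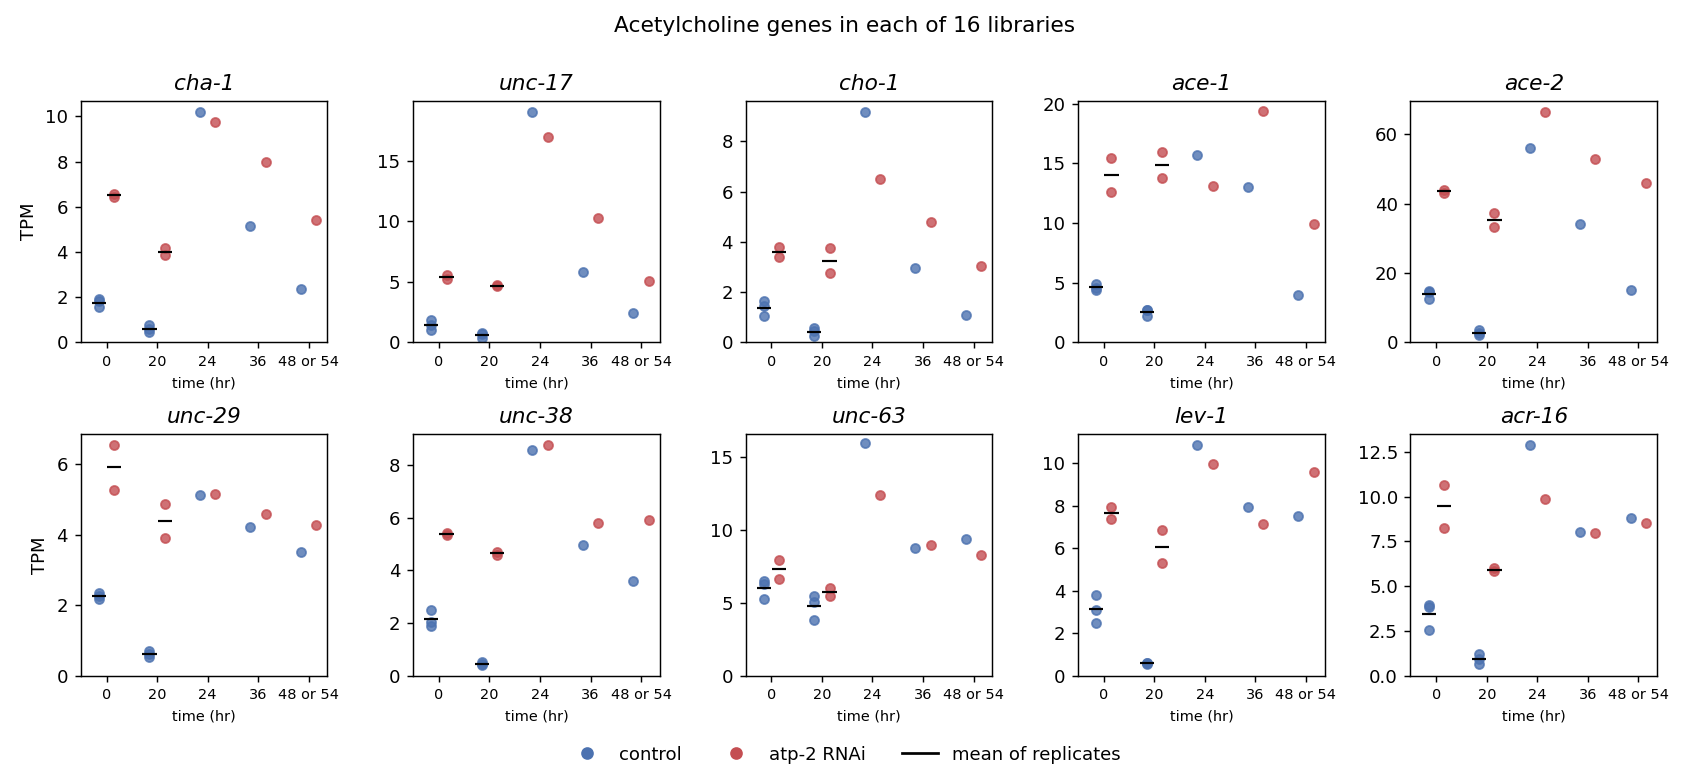
TPM of each of the 10 genes in all 16 libraries, with time in hours on the x axis and each panel on its own TPM axis from 0. Points are libraries, blue for control and red for atp-2 RNAi, and black bars are means of replicates. At 0 hr and 20 hr the red points lie above the blue ones in every panel except that of unc-63 at 20 hr, where 5.44 TPM in an atp-2 RNAi library lies under 5.48 TPM in a control. Such separation was not counted over all genes, of which 43.7% were called higher at 0 hr and 47.7% at 20 hr.

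The synthesis and loading genes share a locus. cha-1, which encodes choline acetyltransferase, the enzyme that makes acetylcholine, lies on chromosome IV from 3613934 to 3624697 on the minus strand of WBcel235. unc-17, which encodes the transporter that loads acetylcholine into vesicles, lies within it from 3618259 to 3624697 on the same strand. In the Ensembl 115 annotation, 3 of the 4 exons of unc-17 lie inside 1 intron of cha-1, and the genes share 66 exon bases, of 2073 exon bases in cha-1 and 1922 in unc-17. Reads from the shared bases cannot be told apart, and how they were assigned is not given in the sources used here.

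At 0 hr cha-1 stood at 1.57, 1.81 and 1.89 TPM in the controls and at 6.57 and 6.43 TPM in atp-2 RNAi. At 20 hr the controls held 0.756, 0.444 and 0.566 TPM and the atp-2 RNAi libraries 3.88 and 4.15. The groups did not overlap at either time, and cha-1 rose by 1.45 ± 0.18 (SE) on the log2(TPM + 1) scale at 0 hr (limma, adjusted p = 1.62e-04) and by 1.66 ± 0.17 at 20 hr (limma, adjusted p = 4.59e-05). unc-17 stood at 1.03, 1.43 and 1.80 TPM in the 0 hr controls against 5.58 and 5.26 in atp-2 RNAi, and at 0.326, 0.697 and 0.753 against 4.62 and 4.71 at 20 hr. Again every atp-2 RNAi library was above every control, with rises of 1.42 ± 0.21 at 0 hr (limma, adjusted p = 3.86e-04) and 1.84 ± 0.19 at 20 hr (limma, adjusted p = 4.42e-05). Because 1 is added before the logarithm, these values understate the change of genes at such low levels: the means of unc-17 differed 3.83-fold at 0 hr and 7.87-fold at 20 hr, and those of cha-1 3.70-fold and 6.82-fold. Both genes had 20 hr control means under 1 TPM and passed the filter there only through atp-2 RNAi.

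The balance of transporter to enzyme was tested within libraries, as a log2 ratio of TPM + 1. In the 20 hr controls both genes were under 1 TPM, so the added 1 draws the ratio toward 0. The test can therefore say little about the balance at that time. The log2 ratio of unc-17 over cha-1 differed between atp-2 RNAi and control by 0.08, averaged over 0 hr and 20 hr (two-sided exact permutation test within times, p = 0.73, adjusted over 3 ratios 0.73). The smallest p this design allows is 0.01. The ratio ranged from -0.34 to -0.05 in the 0 hr controls and from -0.25 to -0.20 in the 0 hr atp-2 RNAi libraries, and at 20 hr from -0.40 to 0.23 against 0.15 to 0.20. At 24 hr it was 0.84 in the control and 0.74 in atp-2 RNAi, where unc-17 was at 19.1 and 16.95 TPM and cha-1 at 10.2 and 9.76 TPM.

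cho-1 encodes the high-affinity transporter that takes choline back into cholinergic nerve endings and lies on chromosome IV from 13209729 to 13214566, minus strand. It was the lowest of the 10 genes in each of the 4 replicated groups by mean TPM. The 0 hr controls held 1.04, 1.45 and 1.63 TPM and the atp-2 RNAi libraries 3.41 and 3.78. At 20 hr these were 0.452, 0.560 and 0.243 against 2.75 and 3.75 TPM. With no overlap at either time, cho-1 rose by 0.96 ± 0.20 at 0 hr (limma, adjusted p = 0.00256) and by 1.58 ± 0.19 at 20 hr (limma, adjusted p = 1.17e-04). Its 20 hr control mean was under 1 TPM, so it passed the filter there only through atp-2 RNAi.

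The acetylcholinesterase genes were the most abundant of the 10 in the atp-2 RNAi libraries at both times. ace-1, on chromosome X from 16367229 to 16373789, plus strand, encodes an enzyme known from body wall muscle and some neurons. It held 4.37, 4.56 and 4.85 TPM in the 0 hr controls against 12.6 and 15.5 in atp-2 RNAi, and 2.72, 2.21 and 2.68 against 13.7 and 15.9 at 20 hr. The rises were 1.42 ± 0.18 (limma, adjusted p = 1.67e-04) and 2.16 ± 0.18 (limma, adjusted p = 1.30e-05). ace-2, on chromosome I from 3302001 to 3307587, minus strand, encodes an enzyme known mainly from neurons. It held 12.3, 14.5 and 14.7 TPM in the 0 hr controls against 43.0 and 44.0 in atp-2 RNAi. At 20 hr its controls fell within 2.05 to 3.47 TPM and its atp-2 RNAi libraries were at 33.3 and 37.3. ace-2 rose by 1.59 ± 0.15 at 0 hr (limma, adjusted p = 3.65e-05) and by 3.29 ± 0.21 at 20 hr (limma, adjusted p = 4.00e-06), and its means at 20 hr differed 12.8-fold, the largest of the 10.

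ace-2 was also high relative to ace-1 in atp-2 RNAi. The log2 ratio of ace-2 over ace-1, taken on TPM + 1, was greater by 0.65, averaged over both times (two-sided exact permutation test within times, p = 0.02, adjusted over 3 ratios 0.03). At 0 hr the ratio spanned 1.31 to 1.48 in controls and 1.45 to 1.69 in atp-2 RNAi, which overlap. At 20 hr it spanned -0.27 to 0.27 against 1.18 to 1.22, which do not. When any single 20 hr library or the atp-2 RNAi 0 hr replicate 2 was left out, p was 0.05 and the difference 0.56 to 0.70.

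The levamisole receptor is built from the subunits UNC-29, UNC-38, UNC-63 and LEV-1, with LEV-8. unc-29 encodes a non-alpha subunit and lies on chromosome I from 8897613 to 8901435, minus strand. It held 2.24, 2.16 and 2.34 TPM in the 0 hr controls against 5.26 and 6.55 in atp-2 RNAi, and 0.711, 0.612 and 0.541 against 3.90 and 4.87 at 20 hr. unc-38, an alpha subunit gene on chromosome I from 4897620 to 4900977, minus strand, held 1.89, 2.05 and 2.51 against 5.41 and 5.36 TPM, then 0.521, 0.428 and 0.420 against 4.599 and 4.68. lev-1, a non-alpha subunit gene on chromosome IV from 13174157 to 13179457, minus strand, held 2.48, 3.81 and 3.08 against 7.36 and 7.94 TPM, then 0.614, 0.570 and 0.593 against 5.28 and 6.84. In all 3 genes the groups stood apart at both times. The rises at 0 hr were 1.08 ± 0.19 for unc-29, 1.02 ± 0.19 for unc-38 and 1.08 ± 0.21 for lev-1 (limma, adjusted p of 9.44e-04, 0.0013 and 0.00158). At 20 hr they were 1.73 ± 0.17, 1.95 ± 0.16 and 2.14 ± 0.18 (limma, adjusted p of 3.85e-05, 1.30e-05 and 1.37e-05), and the means of unc-38 and of lev-1 each differed 10.2-fold. All 3 genes had 20 hr control means under 1 TPM and passed the filter there only through atp-2 RNAi, so these 20 hr values are descriptions.

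unc-63, an alpha subunit gene on chromosome I from 5141675 to 5149226, plus strand, behaved otherwise. The 0 hr controls held 5.29, 6.52 and 6.29 TPM and the atp-2 RNAi libraries 6.65 and 7.95. At 20 hr the controls held 5.48, 5.06 and 3.801 TPM and the atp-2 RNAi libraries 5.44 and 6.01. The groups nearly touched at 0 hr and overlapped at 20 hr, with changes of 0.24 ± 0.19 (limma, adjusted p = 0.262) and 0.23 ± 0.20 (limma, adjusted p = 0.298). Its direction depended on the scaling: after quantile normalization the change was -0.22 at 0 hr (limma, adjusted p = 0.287) and -0.81 at 20 hr (limma, adjusted p = 0.00354). The other 9 genes remained higher under that scaling, by 0.60 to 1.73 at 0 hr and 0.45 to 3.34 at 20 hr. Without it the ranges were 0.96 to 1.59 and 1.58 to 3.29, so the smallest changes shrank, most of all at 20 hr. Setting all libraries to a common median lowered each change by 0.15 at 0 hr and 0.12 at 20 hr and left the same 9 called.

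The share of unc-63 among the subunit transcripts was higher in controls than in atp-2 RNAi at 0 hr and 20 hr. Of the summed TPM of the 4 subunits, it made up 44.2% to 44.8% in the 0 hr controls and 26.95% to 28.6% in atp-2 RNAi. At 20 hr it made up 71.0% to 75.9% in controls and 26.8% to 28.3% in atp-2 RNAi. This share was computed after the values were seen and is given without a test. In the unreplicated libraries it was 39.4% and 34.2% at 24 hr, 33.8% in both at 36 hr, and 39.0% in the 48 hr control against 29.5% in atp-2 RNAi at 54 hr. The 20 hr controls stood apart from all other libraries, with unc-29, unc-38 and lev-1 each at 0.420 to 0.711 TPM while unc-63 was at 3.801 to 5.48.

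**Figure D2:**
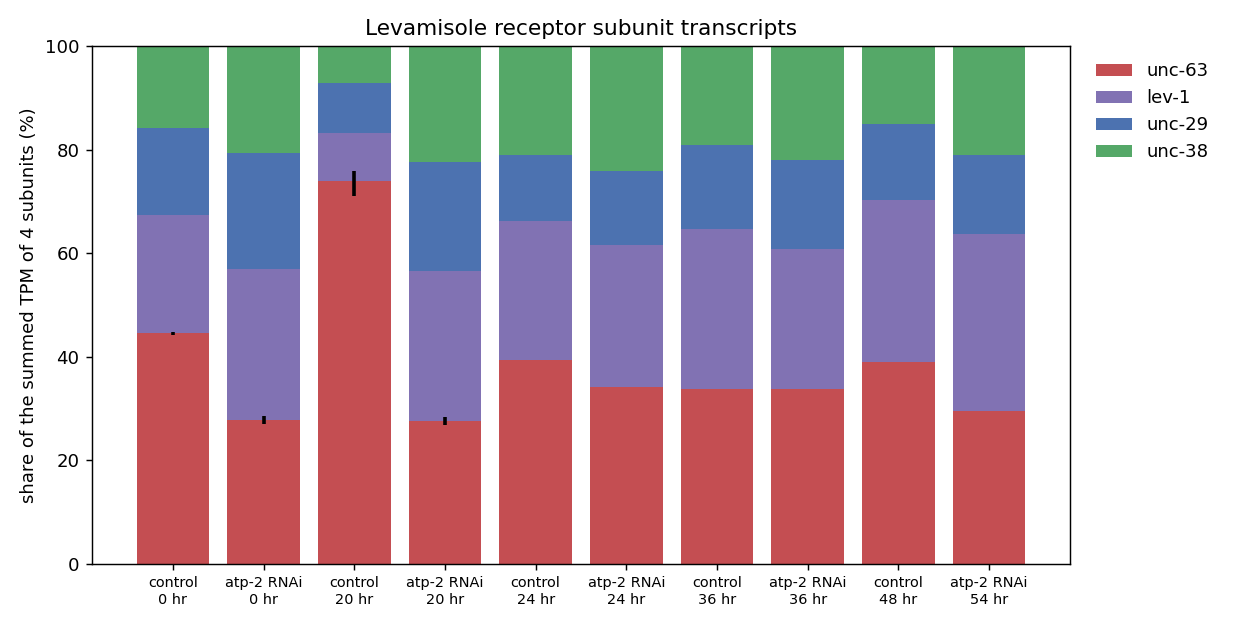
Share in percent of the summed TPM of 4 levamisole receptor subunit genes in each group, as stacked bars of group means; black lines give the range of unc-63 over replicate libraries. The unc-63 share is 73.9% in the 20 hr controls and between 27.6% and 44.5% in the other groups.

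The genes next to unc-63 on the same strand were looked up after its values were seen. mtm-1, which encodes a myotubularin phosphatase, fell by 0.53 at 0 hr (limma, adjusted p = 0.00858), from a mean of 25.98 to 17.6 TPM, and by 1.11 at 20 hr (limma, adjusted p = 3.43e-04), from 35.8 to 15.98 TPM. tyms-1, which encodes thymidylate synthase, changed by 0.26 at 0 hr (limma, adjusted p = 0.281) and fell by 1.78 at 20 hr (limma, adjusted p = 4.23e-05), from 124 to 36.2 TPM.

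acr-16 encodes the subunit of the other muscle receptor class and lies on chromosome V from 8561216 to 8564345, plus strand. It held 2.54, 3.96 and 3.84 TPM in the 0 hr controls against 10.7 and 8.28 in atp-2 RNAi. At 20 hr the controls held 0.929, 1.19 and 0.625 TPM against 5.996 and 5.84. Neither time showed overlap, and acr-16 rose by 1.24 ± 0.23 (limma, adjusted p = 0.00123) and by 1.87 ± 0.19 (limma, adjusted p = 4.15e-05). With a 20 hr control mean under 1 TPM, acr-16 passed the filter there only through atp-2 RNAi. F25G6.8, on the opposite strand from 8564303 to 8565175, overlaps its end and moved the other way, at 106 to 129 TPM in the 0 hr controls against 50.4 to 54.7 and at 143 to 170 against 46.4 to 48.6 at 20 hr. The strand setting of the counting is not given in the sources used here.

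Set against the mean of the 4 levamisole subunits, the log2 ratio of acr-16, taken on TPM + 1, was greater in atp-2 RNAi by 0.37, averaged over both times (two-sided exact permutation test within times, p = 0.02, adjusted over 3 ratios 0.03). It spanned -0.10 to 0.20 in the 0 hr controls against 0.24 to 0.71, and -0.32 to 0.02 against 0.06 to 0.28 at 20 hr. With unc-63 left out of the mean, an alternative added after the data were seen, the difference was 0.05 (two-sided exact permutation test, p = 0.74). Without atp-2 RNAi 0 hr replicate 2 it was 0.25, and without control 0 hr replicate 1 or 3 it was 0.32 or 0.39, each with a p of 0.05. 

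**Figure D3:**
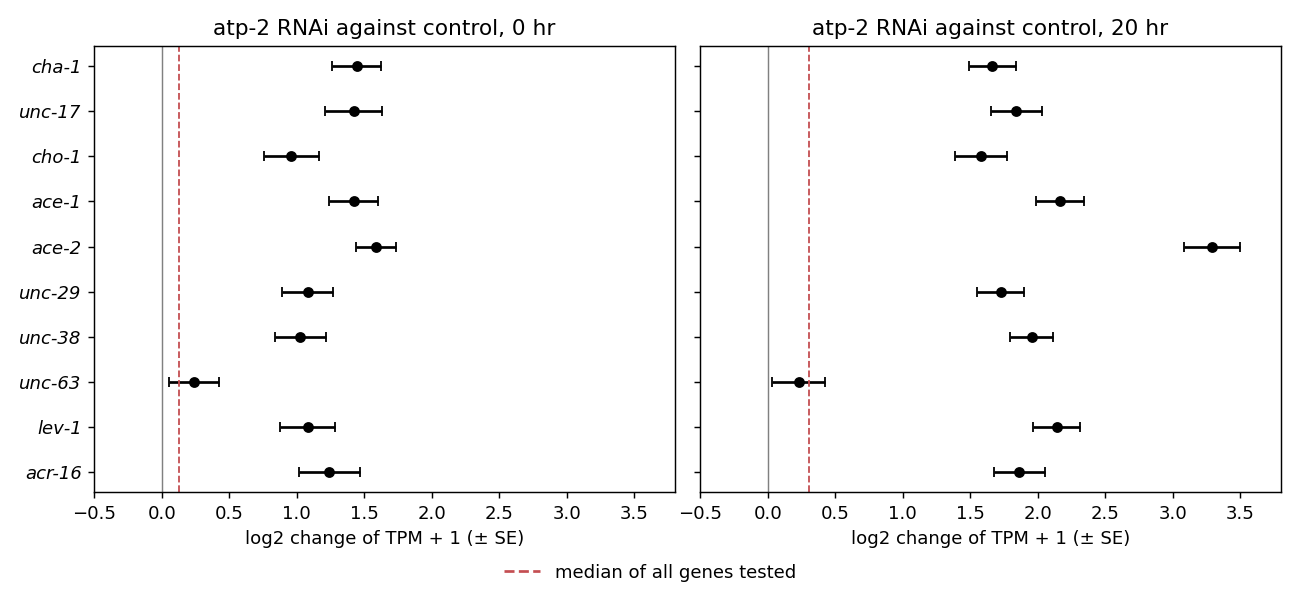
Change of each of the 10 genes in atp-2 RNAi against control at 0 hr (left) and 20 hr (right), on the log2(TPM + 1) scale with bars of 1 SE from limma. The red dashed line is the median over all genes tested, 0.13 at 0 hr and 0.31 at 20 hr, and only the interval of unc-63 reaches it.

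The change was greater at 20 hr than at 0 hr for 5 of the 10 genes, tested as an interaction over all 10 replicated libraries. Of 13679 genes tested, 21.1% had a greater and 21.9% a smaller change at 20 hr. The differences were 1.70 ± 0.25 for ace-2 (limma, adjusted p = 8.26e-04), 1.06 ± 0.26 for lev-1 (limma, adjusted p = 0.0109), 0.93 ± 0.22 for unc-38 (limma, adjusted p = 0.00958), 0.74 ± 0.23 for ace-1 (limma, adjusted p = 0.0278) and 0.64 ± 0.24 for unc-29 (limma, adjusted p = 0.0483). acr-16 with 0.62 ± 0.30, cho-1 with 0.62 ± 0.27, unc-17 with 0.42 ± 0.28, cha-1 with 0.22 ± 0.23 and unc-63 with -0.01 ± 0.26 did not pass, with limma adjusted p from 0.0846 to 0.976. The atp-2 RNAi levels of ace-1 were 12.6 to 15.5 TPM at 0 hr and 13.7 to 15.9 at 20 hr, and those of acr-16 were 8.28 to 10.7 and 5.84 to 5.996. The control levels of ace-2 were 12.3 to 14.7 TPM at 0 hr and 2.05 to 3.47 at 20 hr, in separately made tables. Summed muscle markers were also lower in the 20 hr controls than in the 0 hr controls, as given above, and their part in the differences was not tested. Of these 5, ace-2 alone was called under every alternative tried. The calls of ace-1 and unc-29 were lost with libraries set to a common median (limma, adjusted p of 0.062 and 0.113) and without control 0 hr replicate 2, atp-2 RNAi 0 hr replicate 2, control 20 hr replicate 2 or atp-2 RNAi 20 hr replicate 3, which left 3 genes called. unc-29 was called under 4 of 17 alternatives and ace-1 under 11 of 18, and after quantile normalization ace-2 was the 1 gene called.

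The unreplicated pairs have 1 library a group, so there is no replicate check and no test. At 24 hr none of the 10 genes differed by 2-fold on the TPM + 1 scale, beside 6.41% of 12548 genes higher and 4.1% lower. TPM ratios of atp-2 RNAi over control ran from 0.71 for cho-1 to 1.19 for ace-2, and ace-2 was at 66.5 against 56.0 TPM. At 36 hr none passed 2-fold either, beside 7.57% higher and 5.56% lower of all genes. The genes of synthesis, loading, uptake and breakdown had ratios from 1.49 for ace-1 to 1.76 for unc-17, whereas the 5 receptor subunits had ratios from 0.90 for lev-1 to 1.17 for unc-38. unc-17 was at 10.2 against 5.80 TPM, and acr-16 at 7.98 against 8.04.

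The atp-2 RNAi library at 54 hr and the control at 48 hr differed in time as well as in treatment. There ace-1, at 9.93 against 3.99 TPM, and ace-2, at 46.02 against 15.1, were higher by 2-fold on the TPM + 1 scale, beside 17.8% of all genes higher and 14.9% lower. In TPM alone, cha-1 was 2.32, unc-17 2.09 and cho-1 2.80 times as high, while the receptor subunits ran from 0.88 for unc-63 to 1.64 for unc-38. Summed pan-neuronal markers were at 1007 against 447 TPM and summed muscle markers at 21423 against 25824 in these libraries. At 36 hr they were at 982 against 625 and at 21800 against 22170. Their part in these values was not tested.

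**Figure D4:**
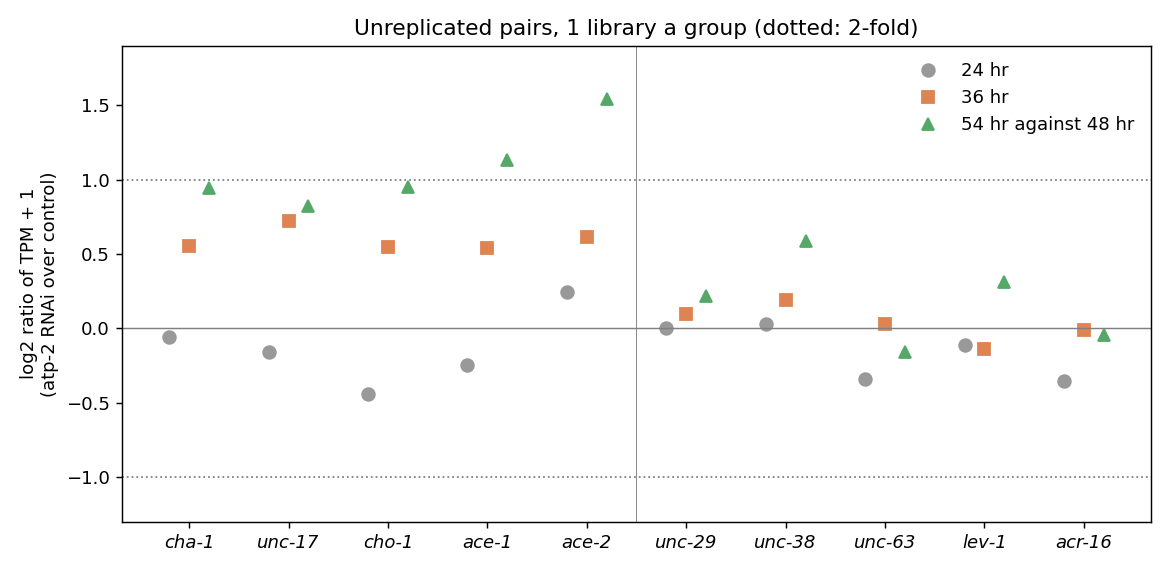
Log2 ratio of TPM + 1 in atp-2 RNAi libraries over controls for the 10 genes in the 3 unreplicated pairs, 1 library a group; dotted lines mark 2-fold. Left of the vertical line are genes of synthesis, loading, uptake and breakdown, right of it receptor subunits. At 36 hr the left group lies between 0.54 and 0.72 and the right group between -0.14 and 0.19.

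Levels across times come from separately made tables, so their order is a description. In all 10 genes the 20 hr controls were the lowest group. The 24 hr control was the highest for cha-1, unc-17, cho-1, unc-63, lev-1 and acr-16, atp-2 RNAi at 24 hr was the highest for ace-2 and unc-38, atp-2 RNAi at 36 hr for ace-1 at 19.4 TPM, and atp-2 RNAi at 0 hr for unc-29 at a mean of 5.91 TPM. Neighbours in the order often did not differ beyond their spread: unc-29 in atp-2 RNAi at 0 hr, 5.26 to 6.55 TPM, was next to 5.15 and 5.13 TPM in the 24 hr libraries, and the atp-2 RNAi libraries at 0 hr and 20 hr overlapped for ace-1. From the 24 hr to the 48 hr control, unc-17 dropped from 19.1 to 2.41 TPM, a ratio of 7.90, and cho-1 from 9.18 to 1.08, a ratio of 8.53. The ratio was 4.37 for cha-1, 3.93 for ace-1 and 3.70 for ace-2. Receptor subunits had ratios from 1.44 for lev-1 to 2.37 for unc-38. From 24 hr to 54 hr in atp-2 RNAi the ratios were 3.36 for unc-17, 2.15 for cho-1, 1.80 for cha-1, 1.45 for ace-2 and 1.31 for ace-1, and 1.04 to 1.497 for the receptor subunits.

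Other genes of the acetylcholine system were read from 4 lists written by name. Of 54 found in the tables, 36 were tested at 0 hr, of which 28 were higher and 5 lower, with a median change of 1.17. At 20 hr 31 were tested, of which 25 were higher and 5 lower, with a median of 1.72. Over all genes tested, 43.7% were higher and 39.6% lower at 0 hr, and 47.7% higher and 40.7% lower at 20 hr. The counts of each list below stand beside these shares. The genes left out of testing were under 1 TPM on average. Of those tested, 9 at 0 hr and 21 at 20 hr had a control mean under 1 TPM and passed the filter only through atp-2 RNAi, where they are high, so the counts of higher genes are descriptions.

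Among 14 tested genes of receptor assembly and clustering, 9 were higher and 4 lower at 0 hr, and 10 higher and 4 lower at 20 hr. At 20 hr 7 of the 14, madd-4 and oig-4 among them, had control means under 1 TPM and passed the filter only through atp-2 RNAi. madd-4, a secreted protein of motor neurons that organizes receptors at the synapse, rose from 3.04 ± 0.55 (SD, n = 3) to 19.8 ± 0.64 (SD, n = 2) TPM at 0 hr, a change of 2.37 (limma, adjusted p = 1.84e-05), and by 3.50 at 20 hr (limma, adjusted p = 5.54e-06). oig-4, an immunoglobulin-domain protein of the levamisole receptor cluster, rose by 2.38 and 3.17 (limma, adjusted p of 1.98e-05 and 3.17e-06). ric-3, a chaperone of nicotinic receptors, rose by 1.65 and 2.34 (limma, adjusted p of 1.49e-04 and 2.97e-05). The 4 lower genes were nra-2, unc-50, emc-6 and crld-1 at both times. nra-2, whose product in the endoplasmic reticulum affects which subunits enter a receptor, fell from 143 ± 17.9 (SD, n = 3) to 31.8 ± 0.85 (SD, n = 2) TPM at 0 hr, a change of -2.13 (limma, adjusted p = 7.77e-06), and its change at 20 hr was -2.95 (limma, adjusted p = 1.04e-06). Its partner nra-4 rose by 1.02 and 0.64 (limma, adjusted p of 8.79e-05 and 0.0063). unc-50, needed for surface levamisole receptors, fell by 0.80 and 1.74 (limma, adjusted p of 9.82e-04 and 9.23e-06).

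Of 21 other nicotinic-type subunit genes in the tables, 10 were tested at 0 hr with 9 higher and none lower, and 8 were tested at 20 hr. All 8 had 20 hr control means under 1 TPM, as had 6 of the 10 at 0 hr, so that they passed the filter only by being high in atp-2 RNAi and had to differ. des-2 and deg-3, whose products form a choline-activated channel together, rose by 2.08 and 1.95 at 0 hr and by 3.12 and 2.63 at 20 hr (limma, adjusted p from 2.30e-06 to 6.78e-05). acr-23, a betaine receptor gene, rose from 0.269 to 6.93 TPM at 0 hr, a change of 2.65 (limma, adjusted p = 1.09e-05), and by 2.26 at 20 hr (limma, adjusted p = 2.32e-05). acr-5, a subunit gene of motor neurons, rose by 2.195 and 1.95 (limma, adjusted p of 6.60e-05 and 4.05e-05).

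Muscarinic-type and acetylcholine-gated chloride channel genes numbered 10, of which 7 were tested at 0 hr with 6 higher, and 4 were tested at 20 hr. Of those 4, 3 had control means under 1 TPM and passed the filter only through atp-2 RNAi. gar-3, a muscarinic receptor gene, rose from 1.94 to 8.24 TPM at 0 hr, a change of 1.65 (limma, adjusted p = 1.22e-04), and by 2.30 at 20 hr (limma, adjusted p = 1.22e-05). gar-2, another muscarinic receptor gene, rose by 0.97 and 1.72 (limma, adjusted p of 0.00341 and 5.72e-05). Of the chloride channel genes, acc-4 rose by 1.34 and 1.56 (limma, adjusted p of 4.11e-04 and 1.44e-04). After quantile normalization its change at 20 hr was 0.43 (limma, adjusted p = 0.0738). acc-1 rose by 1.32 at 0 hr (limma, adjusted p = 3.73e-04) and was not tested at 20 hr.

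In the last list 5 of 8 genes were tested, with 4 higher and 1 lower at 0 hr and 3 higher and 1 lower at 20 hr. Of these, 1 at 0 hr (unc-3) and 3 at 20 hr (unc-3, unc-86 and ace-3) had control means under 1 TPM. They passed the filter there only through atp-2 RNAi, where they are high, so their changes are descriptions. sup-1, a muscle-expressed membrane protein gene known for suppressing an unc-17 mutation, rose from 40.3 to 184 TPM at 0 hr, a change of 2.197 (limma, adjusted p = 3.62e-05), and by 3.46 at 20 hr (limma, adjusted p = 1.84e-06). Both tested transcription factor genes of neuronal identity rose, unc-3 by 1.49 and 1.32 (limma, adjusted p of 1.41e-04 and 2.19e-04) and unc-86 by 1.70 and 1.76 (limma, adjusted p of 1.93e-04 and 6.99e-05). Of the untested ones, unc-42 was at 0.415 TPM in 0 hr controls against 0.293 in atp-2 RNAi, and ttx-3 at 0.111 against 0.506. After quantile normalization the change of unc-3 at 20 hr was 0.27 (limma, adjusted p = 0.142). snf-6, which encodes an acetylcholine and choline transporter of muscle, fell by 0.80 and 1.75 (limma, adjusted p of 0.00306 and 2.70e-05). Of the acetylcholinesterase genes of this list, ace-3 was at 1.13 against 2.01 TPM at 0 hr, a rise of 0.50 (limma, adjusted p = 0.0387), and at 20 hr its change was 0.46 (limma, adjusted p = 0.0636). ace-4, at 0.0754 TPM in the 0 hr controls against 0.272 in atp-2 RNAi, was not tested.

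**Figure D5:**
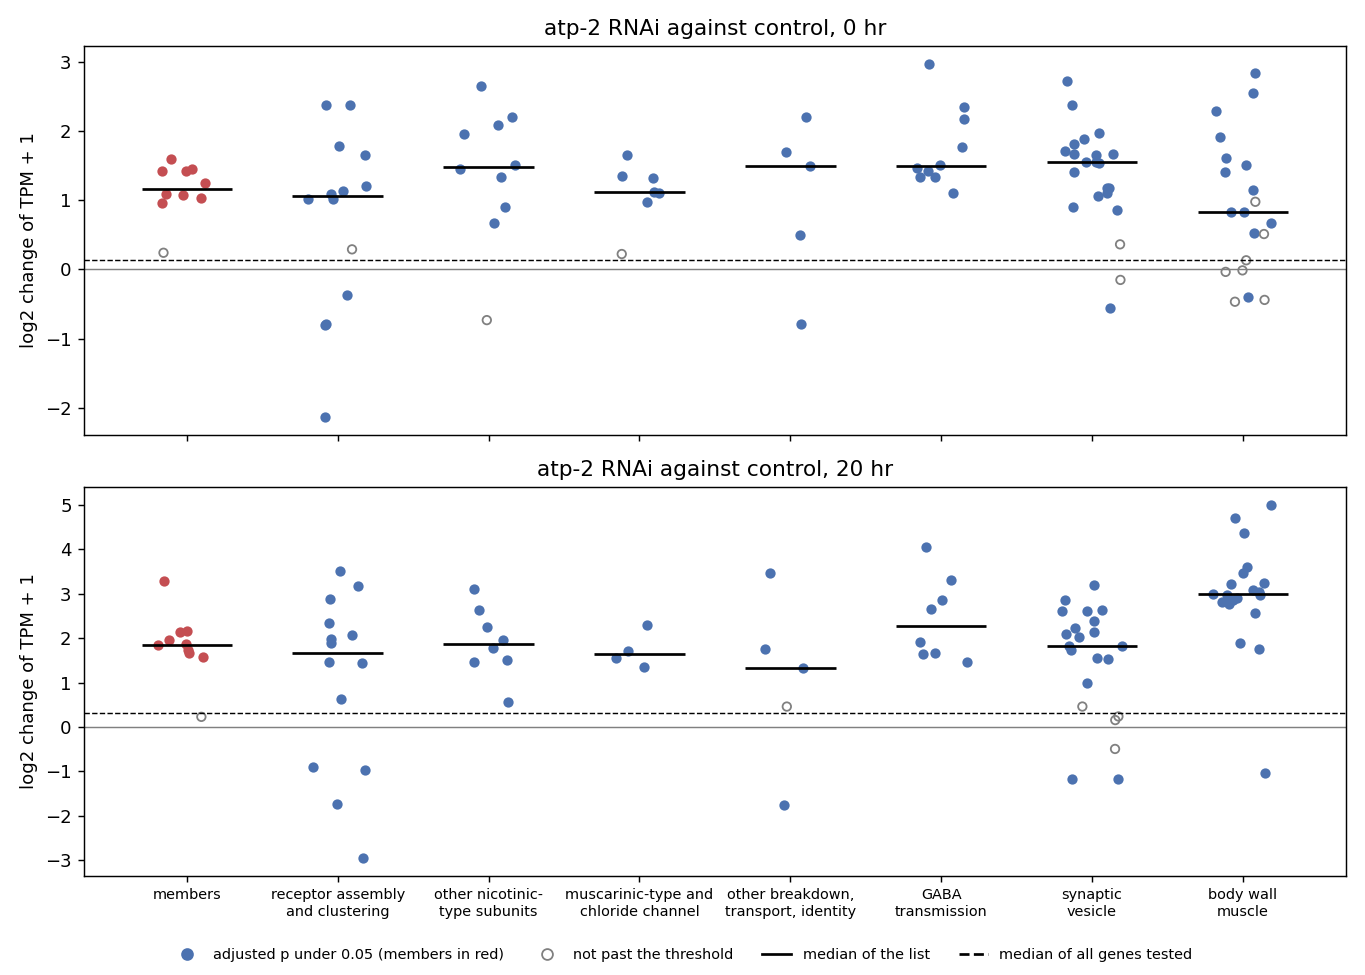
Log2(TPM + 1) change in atp-2 RNAi against control for each tested gene of 8 lists at 0 hr (top) and 20 hr (bottom). Filled points have a limma adjusted p under 0.05, the 10 acetylcholine genes in red; black bars are list medians and dashed lines medians of all genes tested. The 10 genes have medians of 1.16 and 1.85, beside 1.49 and 2.28 for GABA transmission and 0.83 and 2.99 for body wall muscle. Where controls are low at 20 hr, as in the GABA list, the filter favours genes high in atp-2 RNAi.

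Other neuronal and muscle lists gave the setting for these values. Beside their counts, 43.7% of all genes tested were higher and 39.6% lower at 0 hr, and 47.7% higher and 40.7% lower at 20 hr. All 10 genes of GABA transmission were higher at 0 hr, with a median of 1.49, and the 8 tested at 20 hr had a median of 2.28, with 20 hr controls at only 6.59 to 10.2 TPM summed over the list. At such control levels the filter favours genes that are high in atp-2 RNAi, so this 20 hr median is a description. Of 22 synaptic vesicle genes 19 were higher and 1 lower at 0 hr (median 1.55), and 16 higher and 2 lower at 20 hr (median 1.82). Of 14 pan-neuronal genes 11 were higher and 2 lower at 0 hr (median 1.40), and 9 higher and 2 lower at 20 hr (median 1.98). The vesicle and pan-neuronal lists share rab-3, snb-1, ric-4, unc-64, unc-31, unc-104, syd-2 and unc-10, so they are not separate sets. Body wall muscle markers had 12 of 20 higher and 1 lower at 0 hr (median 0.83), and 19 higher and 1 lower at 20 hr (median 2.99). Beside the 21.1% of all genes with a greater and 21.9% with a smaller change at 20 hr, the change was greater for 17 and smaller for 1 of these 20 muscle genes, and greater for 5 and smaller for 0 of the 10 acetylcholine genes. It was greater for 3 and smaller for 0 of 10 GABA genes, greater for 4 and smaller for 3 of 22 vesicle genes, and greater for 3 and smaller for 3 of 14 pan-neuronal genes. All 20 germline and oocyte markers were lower at both times, with medians of -6.36 and -6.07. The difference between lists was not tested.

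Across the 16 libraries, the genes whose log2(TPM + 1) was most like that of unc-17, among 10484 genes that averaged 5 TPM or more, were snt-3, a synaptotagmin gene (Pearson r = 0.989), unc-79 (0.988) and unc-2 (0.987), which encode a subunit of a sodium leak channel complex and a presynaptic calcium channel, and cog-1 (0.987), a homeobox gene. Those most like unc-29 were tmd-2 (0.991), a tropomodulin gene, tag-241 (0.988), fbl-1 (0.986), which encodes fibulin, and C49A1.10 (0.986). Those most like acr-16 were sto-5 (0.986), a stomatin gene, cnb-1 (0.985), the regulatory subunit of calcineurin, C46C11.3 (0.985) and C18D11.1 (0.984). unc-63, looked up after its values were seen, had lower values, from 0.921 for Y72A10A.1 to 0.914 for attf-4. These correlations describe 16 points that share treatment, time and table, and no p is given.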

How the data were processed

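Whole N2 worms gave 16 RNA-seq libraries. Extraction used GENEzol reagents and library preparation a SureSelect kit that keeps strand, per the labels' protocols. The tools were bcl2fastq 2.20, TopHat and Cufflinks with the build WBcel235, per the submitters' processing notes. Which TopHat and Cufflinks versions, gene annotation, TPM program and strand setting were used is not given in the sources used here. Deposited tables of the authors give TPM per library, per the file headers, in which 0.0001 stands for no signal and was set to 0. TPM keep no depth, so no counting interval could be given. The log2 ratios and p-values the authors deposited were not used, and their deposited q-values served only to count calls.

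In limma 3.58.1 (R 4.3.3), log2(TPM + 1) was compared for genes that averaged 1 TPM or more over a table's libraries, by moderated tests with an intensity trend, and p-values were adjusted by Benjamini-Hochberg and read at 0.05. The difference between times was an interaction term over 10 libraries. Ratios of genes were taken on TPM + 1 and used a two-sided exact permutation test within times. Unreplicated pairs were counted at 2-fold, with no test. Replicates are numbered in the labels, which do not say whether they are separate cultures, so p-values measure the spread between these samples. Samples were not treated as paired. Alternatives were pseudocounts of 0.1 and 0.01, other filters, scalings and folds, no intensity trend, a replicate block and leaving out each replicate.

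Members and lists were chosen with earlier results of these data known. Named beyond the 10 genes are, in each list of other acetylcholine genes, the 3 tested genes with the largest change at 0 hr and the 2 with the largest at 20 hr, and the 4 genes most like unc-17, unc-29 and acr-16. Also named, after their values were seen, are mtm-1, tyms-1, F25G6.8, ric-3, nra-4, unc-50, emc-6, crld-1, snf-6, ace-3, ace-4, unc-42 and ttx-3. The same holds for the genes most like unc-63 and those shared by the pan-neuronal and synaptic vesicle lists. Coordinates are those of the deposited tables, and exon overlap is from Ensembl 115. Python 3.11.15, numpy 2.4.6, pandas 2.3.3 and matplotlib 3.10.9 were used. The fits were run on simulated data with known rises in a small share of genes. That does not test them under the wide changes in both directions seen here.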

Additional observations from a re-analysis of the deposited data

Results flagged for a closer look

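The change in atp-2 RNAi against control differed between 20 hr and 0 hr for 5 of the 10 acetylcholine genes, by the interaction term of a limma fit over 10 libraries. Each change was greater at 20 hr. The difference on the log2(TPM + 1) scale was 1.70 for ace-2 (limma, adjusted p = 8.26e-04), 1.06 for lev-1 (limma, adjusted p = 0.0109), 0.93 for unc-38 (limma, adjusted p = 0.00958), 0.74 for ace-1 (limma, adjusted p = 0.0278) and 0.64 for unc-29 (limma, adjusted p = 0.0483). The calls of ace-1 and unc-29 were not stable: ace-1 was called under 11 of 18 alternatives and unc-29 under 4 of 17. Over all genes tested, 21.1% had a greater and 21.9% a smaller change at 20 hr.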

How the results depend on the processing

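The 9 genes called higher at 0 hr and 20 hr kept that call under both other pseudocounts, no filter, both scalings, no trend, the replicate block and each left-out replicate. A mean of at least 5 TPM left 4 and 3 of the 10 genes tested, with 3 and 2 higher, because fewer genes were tested; other acetylcholine genes higher then numbered 6 and 6, and all genes higher at 20 hr 3925. With no filter these were 39 and 9342 at 20 hr. Of all genes tested, 40.2% at 0 hr and 39.8% at 20 hr were higher with a mean of at least 5 TPM, and 31.8% and 38% with no filter. Among named genes of the other lists, quantile normalization ended the calls of acc-4 and unc-3 at 20 hr. It put unc-63 at -0.22 and -0.81 and called 1 member lower at 20 hr, beside 40.5% of all genes tested. Same-numbered samples did not deviate together (correlations 0.028 and -0.045 at 0 hr, -0.0716 and 0.00505 at 20 hr). The count of genes with a greater change at 20 hr, 5, was 3 with the replicate block, which ended the calls of ace-1 and unc-29 (limma, adjusted p of 0.0751 and 0.136), 2 with a mean of at least 5 TPM, 3 with a common median, 1 after quantile normalization, and 3 to 6 with a replicate left out. The block changed no other count of calls by 1.5 times. Of all genes tested, 20% had a greater and 18.7% a smaller change at 20 hr with the block. These shares were 19.1% and 26.8% with a mean of at least 5 TPM, 17.7% and 30.8% with a common median, and 16% and 18.7% after quantile normalization.

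These differences between times changed sign, none of them called in either setting except unc-29, which was called before. At pseudocounts of 0.1 and 0.01 they were 0.12 and 1.12 for acr-23, 0.19 and 0.35 for acr-5, and 0.049 and 0.17 for unc-3. With a common median they were -0.0744 for acc-1 and -0.12 for unc-86. After quantile normalization they were -0.48 for cha-1, -0.23 for unc-17, -0.051 for cho-1, -0.053 for unc-29, -0.12 for acr-16, -0.44 for acc-1, -0.43 for acc-4, -0.019 for gar-3 and -0.60 for unc-86. For unc-63 it was 2.29e-04 at a pseudocount of 0.01, 0.16 with the block and -0.14 to 0.10 with a replicate left out; for unc-86 it was -0.12 to 0.25 with a replicate left out.

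With a replicate left out, unc-17 over cha-1 ran from -0.023 to 0.14, ace-2 over ace-1 from 0.56 to 0.71 and acr-16 over the levamisole subunits from 0.25 to 0.49; the last was 0.36 at a pseudocount of 0.1 (two-sided exact permutation test, p = 0.08) and 0.053 without unc-63. In the unreplicated pairs, 2 genes passed 1.5-fold at 36 hr. At 54 hr against 48 hr, 6 passed 1.5-fold, 5 passed 2-fold at a pseudocount of 0.1, and 1 with a common median. The shares of all genes at these settings are not given, so the counts are descriptions. The causes were not tested. TPM keep no depth, so how depth limits the low values is unknown.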
